A study of Mus musculus with 16 samples.

Results

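A set of 10 secreted factors was followed in adoptively transferred mouse CD8 T cells: Ifng, Il2, Csf2, Ccl3, Ccl4, Ccl5, Xcl1, Tgfb1, Areg and Ebi3. These cytokine and chemokine output genes were taken by name from the count table, with Il10 and the TNF family left out. The rule that names them uses no measured value, but they were chosen with earlier results of these data known. All 10 were found among the 55573 genes of the table, and all 10 passed the filter on low counts, which kept 13711 genes. The cells were OT1 cells on the C57BL/6 background, that is, T cells whose transgenic receptor recognises an ovalbumin peptide. Mice carrying tumours received Foxp3UP cells mixed with Mock cells, and live transferred cells were sorted from the tumours on day 5 by CD8 with CD45.1 and/or CD90.1. In all, 16 libraries fell into 4 groups of 4, named Foxp3UP, MockUP, Foxp3DN and MockDN. No label explains the names UP and DN, how Foxp3 was introduced, the age of the mice or whether libraries came from separate mice. P-values therefore measure the spread between these libraries, which may be technical.

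CD8 T cells release most of these proteins after their antigen receptor is engaged. Interferon gamma (Ifng) acts on tumour and myeloid cells, interleukin-2 (Il2) feeds T cells, and GM-CSF (Csf2) acts on myeloid cells. Ccl3, Ccl4 and Ccl5 attract leukocytes, through receptors that include Ccr1 and Ccr3, and Xcl1 attracts cross-presenting dendritic cells that carry Xcr1. Tgfb1 and Ebi3 are also products of regulatory T cells, the lineage that Foxp3 specifies. Tgfb1 encodes a suppressive cytokine that is released in a latent form, and Ebi3 encodes the shared subunit of interleukin-27 and interleukin-35. Areg encodes the EGF-family growth factor amphiregulin, which is linked to tissue repair.

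Library totals ran from 9389477 to 13226590 counts, and 19847 to 20763 genes had at least 1 count. Foxp3 itself was higher in Foxp3UP than in MockUP, by 0.92 on the log2 scale (adjusted p = 0.00233), and differed by -0.33 between Foxp3DN and MockDN (adjusted p = 1.00). All 9 CD8 T cell markers passed the filter, and Cd4 stayed at or below 0.759 CPM (counts scaled by TMM to a common library size) in every library. Neutrophil, basophil and mast cell, and NK cell markers summed to at most 1.81 CPM in any library. B cell markers summed to 3.80 to 7.92 CPM. All 5 melanocyte lineage markers passed the filter, and 0 were called in Foxp3UP against MockUP. They summed to 61.7 to 143 CPM in Foxp3UP, 63.1 to 94.3 in MockUP, 36.2 to 81.2 in Foxp3DN and 22.8 to 72.9 in MockDN. The part of RNA from such cells in the output levels was not tested. The sample numbers in the labels put replicates 1 and 2 of every group first and replicates 3 and 4 after them. Several of the output genes separated along that line, so values within each set of replicates are given beside the pooled ones. MockUP 2 stood apart, with the lowest level of Ifng, Ccl3, Ccl4 and Ccl5 among the 16 libraries. It was also the lowest of the 16 for each of the 9 CD8 T cell markers, with Cd3d at 252 CPM against 437 to 653 CPM in the others, and the part of this in its output levels was not tested. Results that rest on it are also given without it.

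The 10 genes differed widely in level per exon length. In RPKM, which is CPM per kilobase of exon, Ccl4 was highest in all 4 groups, followed by Ccl5, Ccl3, Ifng, Xcl1, Tgfb1 and Csf2 in that order. Ccl4 averaged 2092 ± 868 RPKM in Foxp3UP and 2747 ± 1890 RPKM in MockUP, and 3147 ± 1123 RPKM in Foxp3DN and 2738 ± 890 RPKM in MockDN (SD, n = 4). Neighbours overlapped in many places: in MockUP the libraries of Ccl4 and Ccl5, of Ccl5 and Ccl3, of Ccl3 and Ifng, and of Ifng and Xcl1 all overlapped. In Foxp3UP, Foxp3DN and MockDN, Xcl1 was clear of both Ifng above it and Tgfb1 below it. Areg, Ebi3 and Il2 took the last places in every group, with library values between 0.875 and 6.14 RPKM. Their order changed between groups: Ebi3 stood in place 8 in Foxp3UP, at 5.44 ± 0.537 RPKM, and in place 10 in MockUP, at 2.02 ± 1.13 RPKM. Counts were lowest for Ebi3 (10 to 81 per library), Il2 (14 to 69) and Areg (27 to 88), so these 3 carry the largest counting error.

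**Figure D1:**
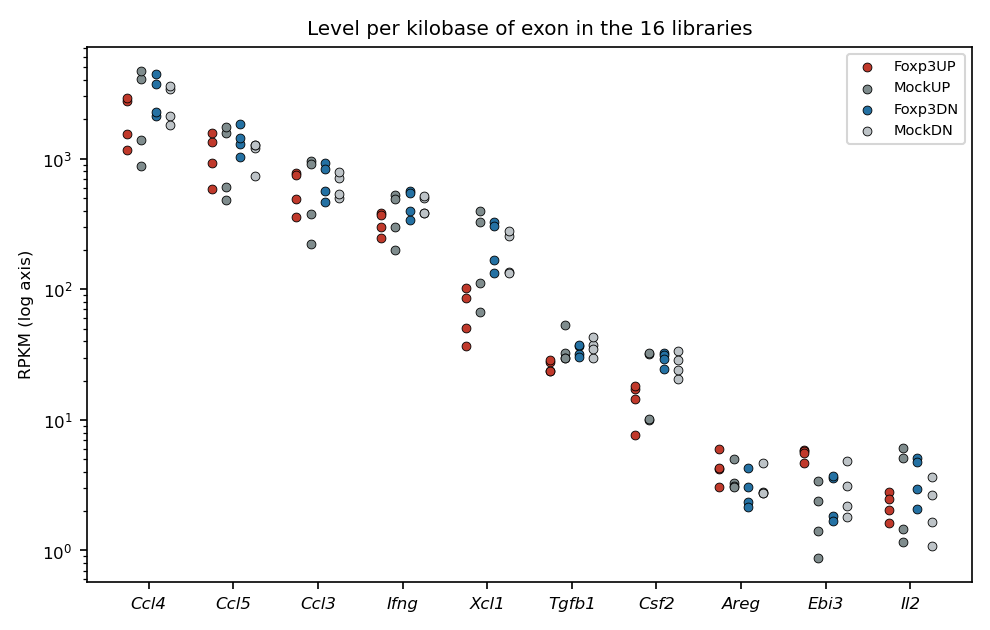
Level of each gene in RPKM (log axis) in the 16 libraries, each point a library, coloured by group. The points run from Ccl4, which reaches 4663 RPKM, down to Ebi3, whose lowest library lies at 0.875 RPKM.

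The first comparison asked which outputs differ between Foxp3UP cells and MockUP cells from the tumour. Only Ebi3 of the 10 genes was called, and it rose. A call means a p under 0.05 in edgeR's quasi-likelihood test after Benjamini-Hochberg adjustment over all 13711 genes. Of all genes tested, 12.1% were called in this comparison. Of the other 9, Areg had a log2 fold change above 0 and 8 had one below 0, and none passed. The median log2 fold change was -0.31 over the 10 genes and 0.0041 over all genes tested. With the replicate number as a block, which pairs each Foxp3UP library with the same-numbered MockUP library, 25.3% of all genes were called. Of the 10, Ebi3 was then called higher and Xcl1 and Tgfb1 lower. DESeq2 called these 3 as well, but the share of all genes that it called is not given here. Foxp3UP and MockUP libraries did not overlap for 2 of the 10 genes (Tgfb1 and Ebi3), against 15.9% of all genes.

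**Figure D2:**
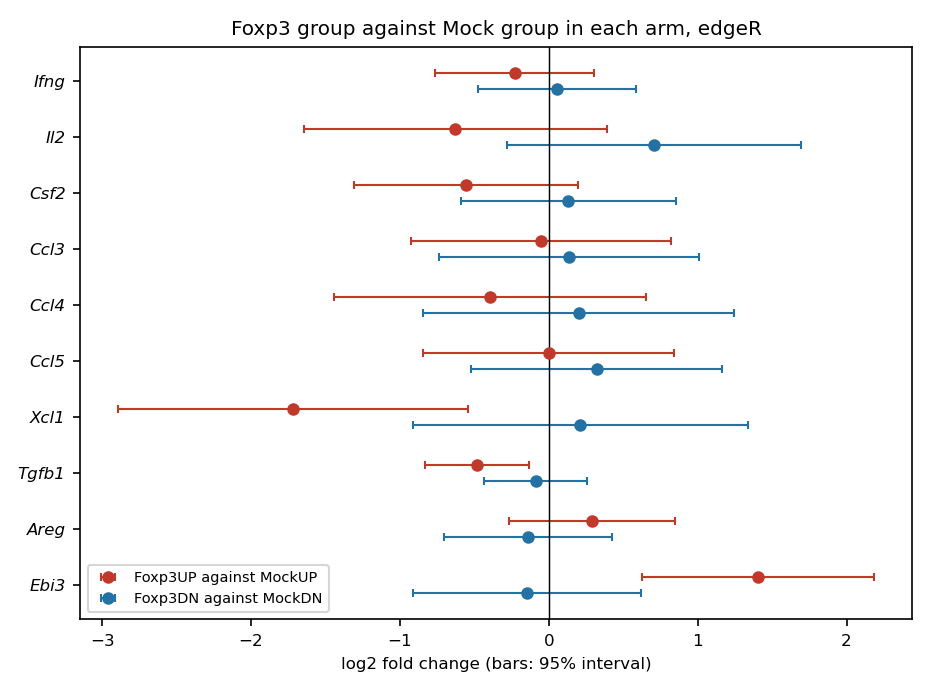
Fold changes (log2) of the 10 genes with 95% intervals, Foxp3UP against MockUP in red and Foxp3DN against MockDN in blue, from edgeR without the replicate block. The red intervals of Xcl1 and Tgfb1 lie below 0 and that of Ebi3 above 0, while every blue interval spans 0.

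Ebi3 (chromosome 17, 55952640 to 55957022, plus strand, mm10) was the one output gene called higher in Foxp3UP. Its level was 5.37, 6.73, 6.62 and 6.40 CPM in Foxp3UP replicates 1 to 4 and 3.96, 2.75, 1.01 and 1.62 CPM in MockUP. Every Foxp3UP library lay above every MockUP library. In Foxp3DN the values were 4.14, 4.29, 2.10 and 1.94 CPM, and in MockDN 3.57, 5.63, 2.54 and 2.10 CPM. The Foxp3UP libraries were thus close together, while the other 3 groups were lower in replicates 3 and 4 than in replicates 1 and 2. The log2 fold change in Foxp3UP against MockUP was 1.41 ± 0.37 (SE; 95% interval 0.63 to 2.19), a 2.65-fold difference (adjusted p = 0.0193). It was 1.44 with the replicate block (adjusted p = 0.00267), and the level was higher in 4 of 4 same-numbered pairs. It held without MockUP 2 (1.48, adjusted p = 0.0293) but not without either of MockUP 3 and 4: without MockUP 3 the log2 fold change was 1.15 (adjusted p = 0.0571) and without MockUP 4 it was 1.26 (adjusted p = 0.0568).

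Ebi3 overlaps a predicted gene on the opposite strand, Gm16712, which rose as well. Gm16712 averaged 5.36 ± 0.503 CPM in Foxp3UP and 2.65 ± 0.891 CPM in MockUP (SD, n = 4), a log2 fold change of 1.01 (adjusted p = 0.00970). No source used here says whether the counting used strand. The overlap was taken over whole gene spans, so how many reads the pair shares was not tested. Dendritic cells and macrophages also make Ebi3. Of 11 macrophage and monocyte markers, 9 passed the filter and 1, Cd68, was called higher. The summed level of the list was 53.6 to 76.7 CPM in Foxp3UP and 37.3 to 56.9 CPM in MockUP. Of 6 dendritic cell markers, 3 passed and 1, H2-Ab1, was called higher, with sums of 65.4 to 87.4 CPM in Foxp3UP and 41.2 to 67.6 CPM in MockUP. Of the markers that define dendritic cells, Siglech was at 0 in all 16 libraries and Flt3 and Clec9a stayed at or below 0.476 CPM. Xcr1, at 14.4 to 26.8 CPM, and Zbtb46, at 3.17 to 11.5 CPM, were present in all 16. The part of such cells in the Ebi3 result was not tested, and in bulk samples fewer cells of a type and less RNA per cell cannot be told apart.

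The partners of Ebi3 were scarce. Il27, whose product joins Ebi3 in interleukin-27, averaged 1.27 ± 0.321 CPM in Foxp3UP and 0.611 ± 0.221 CPM in MockUP, and its log2 fold change of 1.04 ± 0.51 (SE) did not pass (adjusted p = 0.200). Il12a, whose product joins Ebi3 in interleukin-35, had at most 4 counts in a library and did not pass the filter. Of the receptor chains, Il27ra rose by 0.33 on the log2 scale (adjusted p = 0.0107), from 115 ± 4.79 to 145 ± 14.1 CPM. Il6st, the signalling chain shared by several cytokines, differed by 0.03 (adjusted p = 0.940).

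Xcl1 (chromosome 1, 164931644 to 164935527, minus strand, mm10) had the lowest log2 fold change of the 10 genes. Its level was 19.2, 26.4, 44.7 and 53.4 CPM in Foxp3UP replicates 1 to 4 and 58.5, 35.3, 171 and 207 CPM in MockUP. Each Foxp3UP library lay below its same-numbered MockUP library, but MockUP 2, at 35.3 CPM, fell inside the Foxp3UP range. In Foxp3DN the values were 70.2, 88.0, 170 and 159 CPM, and in MockDN 70.5, 70.0, 133 and 147 CPM. All 4 Foxp3UP libraries lay below all 8 libraries of the DN arm. Against MockUP the log2 fold change was -1.72 ± 0.55 (SE; 95% interval -2.89 to -0.54), or 3.29-fold lower, and it did not pass the threshold (adjusted p = 0.0570). With the replicate block it was -1.52 and passed (adjusted p = 0.000217), and with DESeq2 the adjusted p was 0.0162. It also passed without MockUP 1 (adjusted p = 0.0356) and without MockUP 2 (-2.03, adjusted p = 0.0234). It did not pass without MockUP 3 (-1.49, adjusted p = 0.131) or without MockUP 4 (-1.31, adjusted p = 0.158). Nor did it pass without each Foxp3UP library in turn (adjusted p = 0.0664 to 0.144). Of 18 alternative settings, 7 called it.

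Xcl1 also shares its position with a predicted gene on the opposite strand. That gene, Gm20743, averaged 7.60 ± 2.72 CPM in Foxp3UP and 24.3 ± 15.8 CPM in MockUP (SD, n = 4) and fell by 1.68 on the log2 scale (adjusted p = 0.0351). As for Ebi3, the overlap was taken over whole gene spans, and how many reads the pair shares was not tested. Xcr1, the receptor for the Xcl1 product, differed by 0.02 (adjusted p = 0.951).

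Tgfb1 (chromosome 7, 25687002 to 25705077, plus strand, mm10) had a smaller difference with a narrower spread. Its level was 119, 139, 145 and 120 CPM in Foxp3UP replicates 1 to 4 and 163, 268, 149 and 149 CPM in MockUP. Every Foxp3UP library lay below every MockUP library, by a small margin apart from MockUP 2, which stood far above the other 3. In Foxp3DN the values were 185, 161, 187 and 152 CPM, and in MockDN 188, 149, 216 and 175 CPM. The log2 fold change in Foxp3UP against MockUP was -0.48 ± 0.17 (SE; 95% interval -0.83 to -0.14) and did not pass (adjusted p = 0.0662). With the replicate block it was -0.45 and passed (adjusted p = 0.0146), with DESeq2 the adjusted p was 0.0411, and it passed without MockUP 3 (adjusted p = 0.0429) and without MockUP 4 (adjusted p = 0.0423). Without MockUP 2 it was -0.24 (adjusted p = 0.178). Of 18 alternative settings, 6 called Tgfb1.

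**Figure D3:**
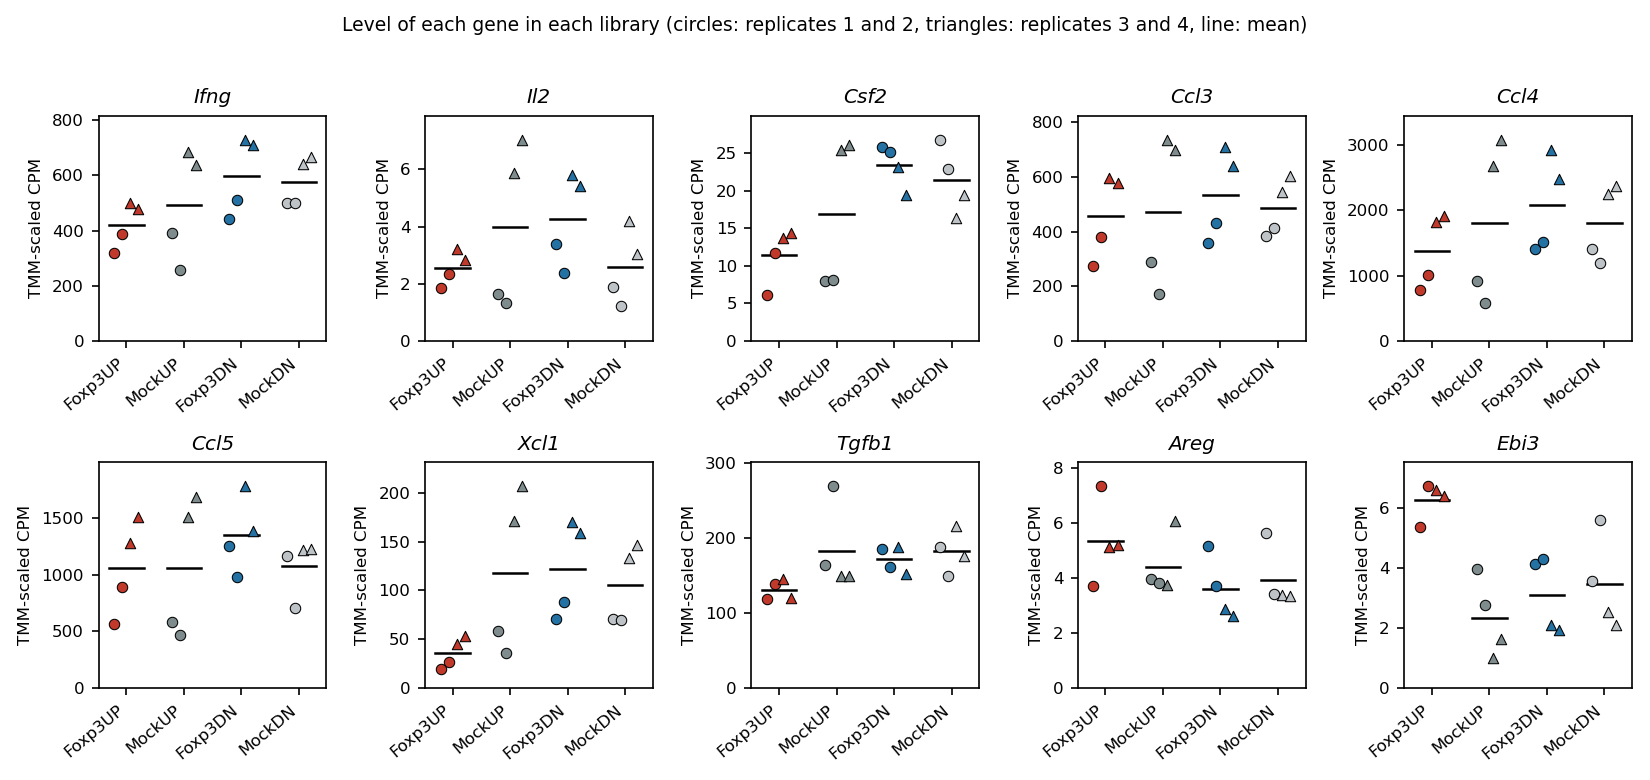
TMM-scaled CPM of the 10 genes in the 16 libraries by group, with circles for replicates 1 and 2, triangles for replicates 3 and 4 and a line at the group mean. Ebi3 lies between 5.37 and 6.73 CPM in Foxp3UP, above all MockUP libraries, and triangles lie above circles in all 4 groups for Ifng, Il2, Ccl3, Ccl4, Ccl5 and Xcl1.

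The promoters of the 3 genes called with the replicate block are shown because their levels differ in direction in Foxp3UP. RefSeq promoters (GRCm38.p6) were matched for 8 of the 10 genes, all but Ccl4 and Ccl5. Each sequence below holds the 250 bases before the RefSeq start, 5′ to 3′ on the gene's strand, with motif matches in capitals.
Ebi3, chr17:55952373-55952622, plus strand: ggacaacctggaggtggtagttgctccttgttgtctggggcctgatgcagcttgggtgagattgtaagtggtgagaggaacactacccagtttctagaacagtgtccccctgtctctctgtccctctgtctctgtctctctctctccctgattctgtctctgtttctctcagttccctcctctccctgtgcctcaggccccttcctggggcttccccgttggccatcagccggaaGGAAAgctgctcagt
Xcl1, chr1:164935523-164935772, minus strand: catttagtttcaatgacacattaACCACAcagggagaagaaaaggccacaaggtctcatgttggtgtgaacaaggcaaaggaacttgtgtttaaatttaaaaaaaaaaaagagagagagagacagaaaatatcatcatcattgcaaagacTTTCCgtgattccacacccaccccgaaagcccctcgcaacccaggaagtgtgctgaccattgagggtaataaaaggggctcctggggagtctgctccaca
Tgfb1, chr7:25686752-25687001, plus strand: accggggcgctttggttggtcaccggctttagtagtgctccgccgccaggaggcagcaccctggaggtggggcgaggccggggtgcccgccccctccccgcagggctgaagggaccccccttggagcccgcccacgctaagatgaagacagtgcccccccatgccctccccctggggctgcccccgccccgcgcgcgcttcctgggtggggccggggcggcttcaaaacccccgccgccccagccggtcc
The motifs searched on both strands were forkhead TGTTTNC, the NFAT core GGAAA, AP-1 TGANTCA and Runx TGTGGT, and no matches overlapped. Ebi3 held 1 NFAT core, 15 to 11 bases before the start. Xcl1 held 1 NFAT core on the opposite strand, 100 to 96 bases before the start, and 1 Runx match on the opposite strand, 227 to 222 bases before it. The Tgfb1 window held none of the 4. No forkhead or AP-1 match lay in any of the 8 windows. Of 32851 promoters of the same length, 55.6% held the NFAT core, 14% the Runx motif, 17.8% the forkhead motif and 6.75% the AP-1 motif.

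The effector cytokines Ifng, Il2 and Csf2 did not pass in Foxp3UP against MockUP. Ifng (chromosome 10, 118441046 to 118445892) measured 318, 387, 499 and 477 CPM in Foxp3UP replicates 1 to 4 and 391, 257, 686 and 637 CPM in MockUP. The 2 groups overlapped, and the log2 fold change was -0.23 ± 0.25 (SE; 95% interval -0.76 to 0.30; adjusted p = 0.615). Il2 (chromosome 3, 37120523 to 37125959) measured 1.85, 2.33, 3.21 and 2.82 CPM in Foxp3UP and 1.66, 1.33, 5.85 and 7.03 CPM in MockUP, with a log2 fold change of -0.63 ± 0.48 (interval -1.64 to 0.39; adjusted p = 0.440). Csf2 (chromosome 11, 54247271 to 54249667) measured 6.08, 11.6, 13.7 and 14.4 CPM in Foxp3UP and 7.92, 8.16, 25.3 and 26.1 CPM in MockUP, with a log2 fold change of -0.56 ± 0.36 (interval -1.31 to 0.20; adjusted p = 0.342). In each of the 3, MockUP held both low and high libraries, with replicates 3 and 4 above replicates 1 and 2. Without MockUP 2 the log2 fold changes of Ifng, Il2 and Csf2 were -0.45, -0.92 and -0.79, and none passed (adjusted p = 0.197, 0.209 and 0.159). Csf2 stood apart from Ifng and Il2 in the DN arm, where it measured 19.5 to 25.8 CPM in Foxp3DN and 16.4 to 26.7 CPM in MockDN, above all Foxp3UP libraries. For Csf2, MockUP 1 and 2 also lay below all libraries of the DN arm, while MockUP 3 and 4 lay within their range. Csf2 and Ifng overlap other predicted genes. Gm12223, on the strand opposite Csf2, differed by -0.47 (adjusted p = 0.410), and Gm49751, on the strand of Ifng, by -0.18 (adjusted p = 0.626). Il2 overlaps Adad1, on the opposite strand, which had at most 2 counts in a library.

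The chemokines Ccl3, Ccl4 and Ccl5 lie on chromosome 11, with 13228 bases between Ccl3 and Ccl4 and 117325 between Ccl5 and Ccl3. None passed in Foxp3UP against MockUP. Ccl3 averaged 456 ± 156 CPM in Foxp3UP and 473 ± 287 CPM in MockUP (SD, n = 4), and its log2 fold change had a 95% interval of -0.93 to 0.82 (adjusted p = 0.953). Ccl4 averaged 1381 ± 573 and 1813 ± 1247 CPM, with an interval of -1.44 to 0.65 (adjusted p = 0.663). Ccl5 averaged 1060 ± 419 and 1061 ± 625 CPM, with an interval of -0.84 to 0.84 (adjusted p = 1.00). The MockUP libraries ran from 171 to 735 CPM for Ccl3, from 585 to 3077 CPM for Ccl4 and from 466 to 1687 CPM for Ccl5. Without MockUP 2, which held the lowest value of each, the log2 fold changes of Ccl3, Ccl4 and Ccl5 were -0.33, -0.69 and -0.25 and none passed (adjusted p = 0.616, 0.374 and 0.740). Areg (chromosome 5, 91139599 to 91148432) measured 3.70, 7.32, 5.11 and 5.21 CPM in Foxp3UP and 3.96, 3.80, 3.73 and 6.06 CPM in MockUP, and the groups overlapped (log2 fold change 0.29 ± 0.26, SE; adjusted p = 0.527).

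The 10 genes together took 2081 to 4673 CPM in Foxp3UP and 1799 to 6498 CPM in MockUP, and 3719 to 6527 CPM in Foxp3DN and 3073 to 5220 CPM in MockDN. Ccl3, Ccl4, Ccl5 and Ifng made up 82.2% to 95.7% of that sum. The lowest share was that of MockUP 2. The group means of the sum were 3510 ± 1244 CPM in Foxp3UP and 4168 ± 2405 CPM in MockUP (SD, n = 4), and the groups overlapped.

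Replicates 3 and 4 lay above replicates 1 and 2 in all 4 groups for 6 of the 10 genes, Ifng, Il2, Ccl3, Ccl4, Ccl5 and Xcl1. Of all genes tested, 5.13% did so, and 6.79% lay below in all 4 groups, which held for 0 of the 10. The ratio of the means of replicates 3 and 4 to those of replicates 1 and 2 ran from 2.00 to 4.03 over the 4 groups for Xcl1, from 1.77 to 3.85 for Ccl4 and from 1.31 to 2.04 for Ifng. It was highest in MockUP for all 6. Csf2 did not follow: replicates 3 and 4 were higher in the UP arm, at 3.20 times in MockUP, and lower in the DN arm, at 0.722 times in MockDN. Ebi3 was lower in replicates 3 and 4 in all groups but Foxp3UP, at 0.392 times in MockUP against 1.07 times in Foxp3UP. Tgfb1 and Areg showed no common direction over the groups. What the sets of replicates stand for is not given in the labels, and the part of it in these levels was not tested.

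Within replicates 3 and 4 alone, 7 of the 10 genes were called in Foxp3UP against MockUP, against 22.2% of all genes. Xcl1 (-1.97), Il2 (-1.11), Csf2 (-0.89), Ccl4 (-0.64), Ifng (-0.46) and Ccl3 (-0.31) fell and Ebi3 (2.28) rose, on the log2 scale. Their adjusted p-values ran from 2.55e-09 for Xcl1 to 0.00689 for Ccl3. Ccl5 (-0.22), Tgfb1 (-0.20) and Areg (0.06) did not pass. Within replicates 1 and 2 alone, 0 of the 10 were called, against 0.221% of all genes (31 genes). There the log2 fold changes of Ifng, Il2, Csf2, Ccl3, Ccl4, Ccl5 and Areg lay between 0.12 and 0.51, Xcl1 stood at -1.04 (adjusted p = 0.128), Tgfb1 at -0.75 and Ebi3 at 0.85 (adjusted p = 0.203). Both fits compare 2 libraries with 2. The difference between the 2 sets was itself tested with edgeR in a fit with a term for each group and set, added after seeing the data. It called 0 of the 10 genes and 0% of all 14336 genes tested, in either arm. In the UP arm 7 of the 10 had an unadjusted p under 0.05, the lowest for Il2 (difference -1.57 ± 0.44, SE; adjusted p = 0.354), and in the DN arm 0 had. The share of all genes with an unadjusted p under 0.05 was not counted in either arm, so neither count has a background.

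**Figure D4:**
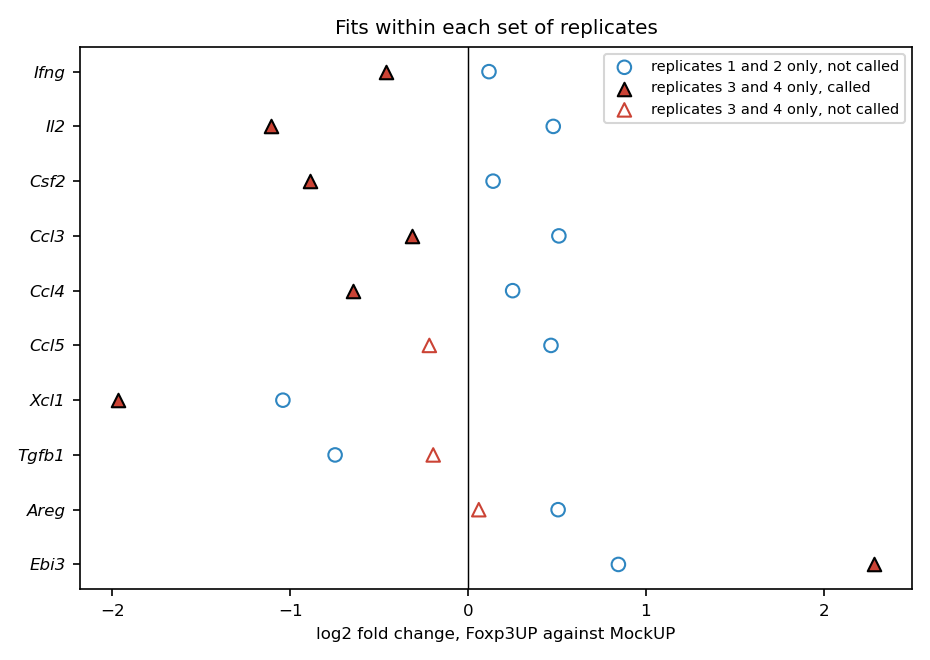
Fold changes (log2) in Foxp3UP against MockUP for the 10 genes, fitted within replicates 1 and 2 (circles) and within replicates 3 and 4 (triangles), filled where called at an adjusted p under 0.05. Xcl1, Tgfb1, Areg and Ebi3 keep their side of 0, and the other 6 genes lie above 0 in replicates 1 and 2 and below 0 in replicates 3 and 4.

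Same-numbered pairs showed which libraries set these differences. Foxp3UP 2 lay above MockUP 2 for Ifng, Il2, Csf2, Ccl3, Ccl4, Ccl5, Areg and Ebi3, by 0.51 to 1.29 on the log2 scale. In pairs 3 and 4 the same Foxp3UP libraries lay below MockUP for Ifng, Il2, Csf2, Ccl3, Ccl4 and Ccl5. Xcl1 was lower in 4 of 4 pairs, by log2 ratios from -1.96 to -0.42, and Tgfb1 in 4 of 4, from -0.95 to -0.04. Ebi3 was higher in 4 of 4, from 0.44 to 2.71. In the DN arm the ratios ran from -0.39 to 0.93, with Il2 higher in 4 of 4 pairs (0.47 to 0.93) and Ccl5 higher in 4 of 4 (0.11 to 0.55).

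**Figure D5:**
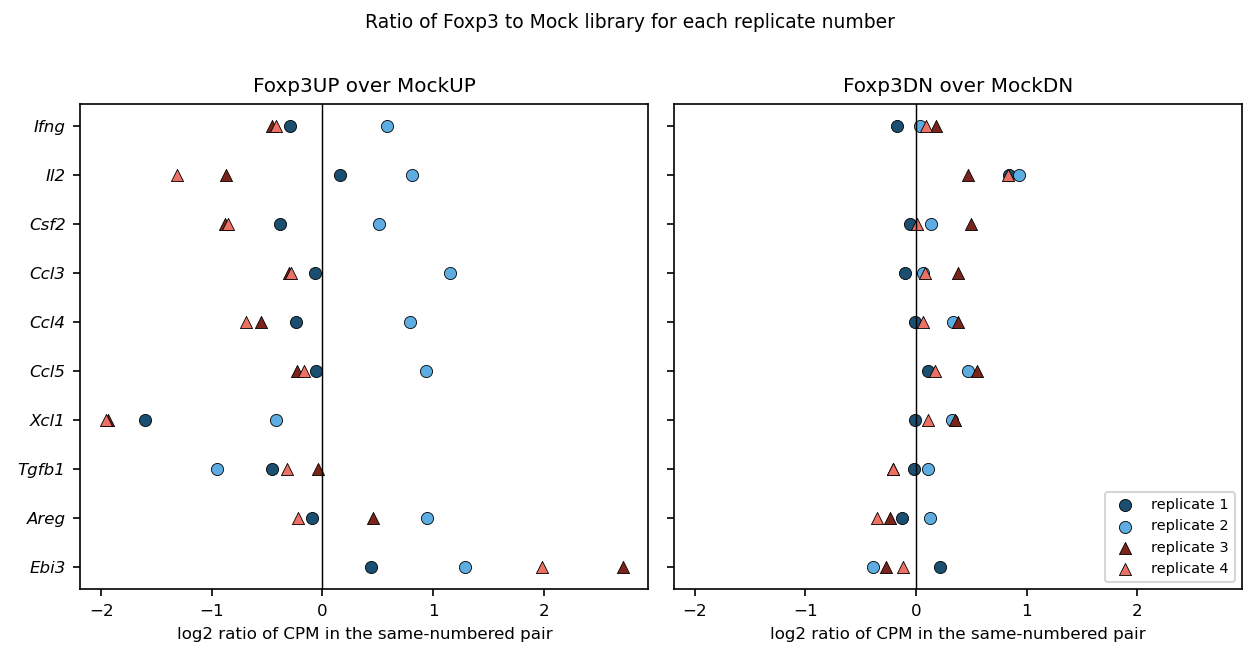
Ratio (log2) of each Foxp3 library to the Mock library of the same replicate number, Foxp3UP over MockUP on the left and Foxp3DN over MockDN on the right. On the left the points of a gene spread widely, from -1.96 to 2.71 over all genes, with Xcl1 and Tgfb1 below 0 and Ebi3 above 0 in every pair.

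In Foxp3DN against MockDN, 0 of the 10 genes were called by edgeR, against 0.00729% of all genes (1 of 13711). None had an unadjusted p under 0.05 without the replicate block, and DESeq2 and the block also called 0. With the block 1, Il2, had an unadjusted p under 0.05 (log2 fold change 0.73, unadjusted p = 0.0189, adjusted p = 1.00). Log2 fold changes ran from -0.15 for Ebi3 to 0.71 for Il2, with a median of 0.13. Il2 averaged 4.25 ± 1.64 CPM in Foxp3DN and 2.6 ± 1.30 CPM in MockDN (SD, n = 4), and the 95% interval of its log2 fold change was -0.28 to 1.69. Ifng averaged 598 ± 142 and 577 ± 89.7 CPM, Xcl1 122 ± 50.1 and 105 ± 40.8 CPM and Tgfb1 171 ± 17.4 and 182 ± 27.9 CPM. The interval of Tgfb1 was the narrowest of the 10, at -0.44 to 0.26.

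The difference between the Foxp3 effects of the 2 arms was tested directly. No output gene passed (0 of 10 in edgeR and 0 in DESeq2, against 1.83% of all genes called by edgeR). An unadjusted p under 0.05 was found for 2, with no share over all genes counted. These were Xcl1, at -1.93 ± 0.75 (SE; adjusted p = 0.222), and Ebi3, at 1.55 ± 0.52 (adjusted p = 0.138), both on the log2 scale. With the replicate block both were called, Xcl1 at -1.71 (adjusted p = 0.00191) and Ebi3 at 1.59 (adjusted p = 0.0215), where 12.7% of all genes were called. Without MockUP 1, Ebi3 passed also with no block (adjusted p = 0.0440). Il2 had a difference of -1.33 ± 0.67 that passed neither without (adjusted p = 0.346) nor with the block (adjusted p = 0.0663). Within replicates 3 and 4 alone 8 of the 10 were called, all but Tgfb1 and Areg, against 12.4% of all genes. Within replicates 1 and 2 alone 0 were called, against 0.0143%, or 2 genes. MockUP against MockDN, the comparison of the control groups, called 0 of the 10 by edgeR or DESeq2, with or without the block (background 0.00729%), and 0 had an unadjusted p under 0.05 without it. Log2 fold changes there ran from -0.56 for Ebi3 to 0.60 for Il2.

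Other secreted factors were mostly at low levels, with exceptions. Group means ran from 287 to 372 CPM for Mif and from 111 to 353 CPM for Spp1. They ran from 153 to 189 CPM for Il16 and from 97.7 to 201 CPM for Cxcl10. Of 32 other interleukins and growth factors 16 passed the filter, and 2 of these 16 rose in Foxp3UP, a share near the 12.1% of all genes called in this comparison: Il18, an interferon gamma-inducing cytokine, by 1.38 ± 0.36 (SE; adjusted p = 0.0199), and Tgfb3, a homologue of Tgfb1, by 0.94 ± 0.25 (adjusted p = 0.0210). Tgfb3 averaged 12.1 ± 0.782 CPM in Foxp3UP and 6.30 ± 2.08 CPM in MockUP, against 6.32 ± 2.11 in Foxp3DN and 5.51 ± 1.79 in MockDN. Il18 averaged 3.68 ± 0.823 CPM against 1.39 ± 0.803 CPM in MockUP. The median log2 fold change of the 16 was 0.28. With the replicate block 8 were called higher and 1 lower, against 25.3% of all genes called. Of 24 other chemokines 14 passed the filter and Cxcl16 fell, by 0.60 (adjusted p = 0.0460), from 5.70 ± 1.25 to 3.75 ± 0.581 CPM. Its adjusted p was 0.0504 with the block, which called 1 chemokine higher and 1 lower.

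Among receptor chains for the 10 factors, 16 of 18 passed the filter, 4 rose and 1 fell in Foxp3UP, against 12.1% of all genes called. Among receptors for Ccl3, Ccl4 or Ccl5, Ccr3 rose to 41.7 ± 22.6 CPM from 0.564 ± 0.308 CPM and Ccr1 to 6.88 ± 1.68 from 2.89 ± 1.06 CPM (SD, n = 4). Their log2 fold changes were 6.17 ± 0.47 and 1.24 ± 0.27 (SE; adjusted p = 4.87e-07 and 0.00684). Il27ra rose as given above, and Ifngr1, a chain of the interferon gamma receptor, rose by 0.26 (adjusted p = 0.0495). Tgfbr3, a co-receptor for TGF-beta, fell by 1.37 (adjusted p = 0.0199), from 2.81 ± 0.983 to 1.06 ± 0.560 CPM. The block called 6 higher and 2 lower, against 25.3% of all genes. The difference of effects between arms was called for Ccr3 (5.45, adjusted p = 0.00212) and for none of the other 15 without the block, against 1.83% of all genes. The block called 3 higher and 1 lower, against 12.7%.

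Genes that process Tgfb1 and Areg included 1 that changed, of 10 of 14 that passed the filter, against 12.1% of all genes called. Lrrc32, which encodes GARP and holds latent TGF-beta at the cell surface, rose by 0.99 ± 0.27 on the log2 scale (SE; adjusted p = 0.0230), from 57.1 ± 26 CPM in MockUP to 113 ± 29.2 CPM in Foxp3UP. Furin, which cleaves the Tgfb1 precursor, differed by -0.40 (adjusted p = 0.387), and Adam17, which sheds amphiregulin, by 0.02 (adjusted p = 0.933). With the block 2 of the 10 were called higher, against 25.3% of all genes called. Of 8 TGF-beta target genes 6 passed the filter and 1 was called, against 12.1% of all genes. This was Itgae, which encodes the integrin CD103 and rose by 2.06 ± 0.30 (adjusted p = 0.000533), from 7.83 ± 3.29 to 32.9 ± 10.7 CPM. The other 5 had log2 fold changes below 0, with Smad7 at -0.67 (adjusted p = 0.0898) and Skil at -0.44 (adjusted p = 0.156). The block called 1 of the list higher and 3 lower, against 25.3% of all genes.

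All 29 transcription factors of cytokine genes passed the filter, 4 fell and 0 rose in Foxp3UP, a share near the 12.1% of all genes called in either direction. The median log2 fold change of the 29 was -0.27. The 4 were Fosb (-1.04 ± 0.29, SE; adjusted p = 0.0306), Rel (-0.65 ± 0.20; adjusted p = 0.0462), Egr2 (-0.57 ± 0.17; adjusted p = 0.0417) and Egr1 (-0.47 ± 0.12; adjusted p = 0.0195). All 4 are induced by or transmit signals of the antigen receptor. Egr1 averaged 398 ± 36.8 CPM in Foxp3UP and 551 ± 55.5 in MockUP, against 599 ± 37.5 in Foxp3DN and 561 ± 106 in MockDN. Fosb averaged 35.4 ± 5.38 CPM in Foxp3UP and 72.7 ± 41.7 CPM in MockUP, whose libraries ran from 51.4 to 135 CPM. Rel averaged 287 ± 64.7 and 451 ± 130 CPM, with MockUP libraries from 290 to 607 CPM. Fits of the 4 genes without MockUP 2 are not given here. With the block 16 of the 29 were called lower and 2 higher, against 25.3% of all genes called. Nfatc1, Nfatc2 and Nfatc3, which carry calcium signals to cytokine promoters, did not pass without the block (adjusted p = 0.153, 0.708 and 0.132). Of 8 genes that act on the decay of cytokine mRNA, Zfp36l1 fell by 0.64 (adjusted p = 0.0193) and Elavl1 by 0.24 (adjusted p = 0.0420), against 12.1% of all genes called. The block called 0 of the 8 higher and 2 lower, against 25.3% of all genes.

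Genes induced by the factors did not follow one direction. Of 17 interferon gamma targets tested, 5 rose in Foxp3UP and Socs1, a feedback inhibitor, fell by 0.41 (adjusted p = 0.0154), against 12.1% of all genes called, with a median log2 fold change of 0.43. The largest rise of these was that of Iigp1, a GTPase of cell-autonomous immunity, by 1.73 ± 0.21 (SE; adjusted p = 9.59e-05), from 13.0 ± 0.994 to 43.4 ± 16.3 CPM. Gbp2, Gbp3, Gbp4 and Igtp rose by 0.58 to 0.72 on the log2 scale. With the block 12 were called higher and 1 lower, against 25.3% of all genes called. Type I interferon induces the same genes. Of 6 interleukin-2 targets, Socs2 rose by 1.24 ± 0.20 (adjusted p = 0.000855) and Myc fell by 0.83 ± 0.18 (adjusted p = 0.00684), against 12.1% of all genes called. The block called 1 of the 6 higher and 1 lower, against 25.3% of all genes. Of Foxp3DN against MockDN, and of the Mock groups against each other, 0 genes of these lists were called with or without the block.

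The genes whose pattern was most like that of an output gene were named over the 16 libraries by Pearson's r of log2 CPM. Since the libraries share the sets of replicates and the groups, r is given as a description only. Ccl5 was most like Srgn (r = 0.97), which encodes the granule proteoglycan serglycin, and Rps27 (0.96). Xcl1 was most like Ndufaf4 and Wdr74 (0.98 each), Ifng like Pfdn2 (0.98) and Trmt61b (0.97), and Ccl4 like Ccdc84 (0.97) and Trnau1ap (0.96). Tgfb1 was most like Hyou1 (0.97) and Fosb (0.97), Ccl3 like Pdcd2 and Psme1 (0.94 each), and Csf2 like Tnfaip8 and Acp4 (0.92 each).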

How the data were processed

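The deposited table by the authors held whole-number counts for each gene and library. Tools named in the submitters' processing notes were STAR 2.6.1 and Subread 1.6.3, with mm10 as the build. How reads were counted, with or without strand, and on which annotation is not stated in the sources read. Symbols came from GENCODE M21, coordinates from the deposited table.

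Counts were filtered with filterByExpr (minimum count 10), scaled by TMM and, with edgeR 4.0.16 (R 4.3.3), tested (quasi-likelihood F test, robust, two-sided, all 16 libraries, 1 term per group; called at an adjusted p under 0.05). Levels are TMM-scaled CPM, or RPKM from the deposited exonic lengths. Alternatives included DESeq2 1.42.0, library totals, other filters, replicate blocks, sets of replicates and leaving out each library. All 10 members were named. From each other list up to 6 called genes were named by adjusted p, and for each member above 10 CPM the 2 genes with the highest r; other genes were chosen after their values were seen. Members and lists were chosen with earlier results of these data known, and 2 genes of these lists are not reported here. The fit was tested on simulated data.

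Replicate numbers were checked as pairs: deviations of same-numbered libraries from their group means correlated at 0.213 to 0.630, and 8 of 8 Foxp3 libraries correlated best with their own number.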

Additional observations from a re-analysis of the deposited data

Results flagged for a closer look

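Each group of 4 libraries was searched for a library far from the other 3 (Dixon's 95% critical value), which flags about 1 in 20 groups by chance; 4 of 40 were flagged. Tgfb1 was 268 CPM in MockUP 2, far above the other MockUP libraries. Ccl5 was 708 CPM in MockDN 2, far below the other MockDN libraries. Areg was 5.63 CPM in MockDN 1 and 6.06 CPM in MockUP 4, each above the rest of its group.

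Foxp3 effects that differed between the arms in edgeR with the replicate block were those of Xcl1 (-1.71, higher in 3 of 4 DN pairs and lower in 4 of 4 UP pairs) and Ebi3 (1.59, higher in 4 of 4 UP pairs and in 1 of 4 DN pairs). Neither difference passed in the main fit, which has no block. Other fits with no block called both, in replicates 3 and 4 only and with a term for the sets of replicates. Ebi3 was also called when MockUP 1 was left out.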

How the results depend on the processing

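The count of called output genes in Foxp3UP against MockUP was 1. It was 3 with library totals, DESeq2, the replicate block or a term for the sets of replicates (the last chosen after seeing the data), 0 in replicates 1 and 2 only, 7 in replicates 3 and 4 only, and 1 to 2 when leaving out each library. The shares of all genes called with library totals and with DESeq2 in this comparison are not given here. For the difference of effects the count was 0; it was 2 with the block or the set term, 8 in replicates 3 and 4 only, and 0 to 1 when leaving out each library. For Foxp3DN against MockDN, and likewise for the Mock groups compared with each other, it was 0 in all 18 settings. Of 790 recomputed log2 fold changes 76 reversed, and all 76 were uncalled.

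Reversals in Foxp3UP against MockUP were Ccl3 0.11 and Ccl5 0.11 (replicate block), Ccl3 0.067 and Ccl5 0.088 (set term), and, in replicates 1 and 2 only, Ifng 0.12, Il2 0.48, Csf2 0.14, Ccl3 0.51, Ccl4 0.25 and Ccl5 0.47. For the difference they were Ccl3 0.0048 (block), Tgfb1 0.014 (replicates 3 and 4 only), and, in replicates 1 and 2 only, Ifng 0.18, Csf2 0.10, Ccl3 0.52, Ccl4 0.092 and Ccl5 0.21. In Foxp3DN against MockDN they were Ifng -0.063, Ccl3 -0.010 and Tgfb1 0.040 (replicates 1 and 2 only). In MockUP against MockDN they were Ccl4 -0.0051 (library totals), Ccl4 -0.0012 (only the groups compared), Tgfb1 -0.012, Xcl1 -0.025 and Ccl4 -0.20 (block), Tgfb1 -0.0049, Xcl1 -0.025 and Ccl4 -0.20 (set term), Il2 -0.080, Areg -0.22, Xcl1 -0.59 and Ccl4 -0.81 (replicates 1 and 2 only), and Tgfb1 -0.40, Ifng 0.012, Ccl3 0.31, Ccl5 0.38 and Csf2 0.52 (replicates 3 and 4 only).

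Leaving out each library, log2 fold changes crossed 0 for Ccl3 (-0.33 to 0.24) and Ccl5 (-0.25 to 0.31) in Foxp3UP against MockUP, for Ccl3 (-0.47 to 0.11) in the difference, and for Ifng (-0.061 to 0.17), Ccl3 (-0.033 to 0.28), Ccl4 (-0.012 to 0.35), Tgfb1 (-0.17 to 0.0022), Areg (-0.36 to 0.084) and Ebi3 (-0.36 to 0.19) in Foxp3DN against MockDN. In MockUP against MockDN they did for Ccl3 (-0.35 to 0.23), Ccl4 (-0.38 to 0.29), Ccl5 (-0.35 to 0.21), Xcl1 (-0.26 to 0.45), Tgfb1 (-0.25 to 0.091) and Areg (-0.046 to 0.36). The causes were not tested. Over all genes, Foxp3UP against MockUP called 1654 genes, 3475 with the replicate block, 2567 with the set term, 658 with only the compared libraries, 31 in replicates 1 and 2, 3025 in replicates 3 and 4 and 1064 to 1978 leaving out each library. The difference of effects called 251 genes, 633 with DESeq2, 1739 with the block, 938 with the set term, 2 in replicates 1 and 2, 1688 in replicates 3 and 4 and 99 to 518 leaving out each library. Foxp3DN against MockDN called 1 gene, 0 in replicates 1 and 2 and 3 in replicates 3 and 4. The Mock groups differed in 1 gene, 2 with no filter or without MockUP 3, 6 with DESeq2 and 35 in replicates 3 and 4. Ebi3, Il2 and Areg had as few as 10, 14 and 27 counts in a library, which limits their precision.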
